A study of Vitis vinifera with 27 samples.

Results

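The aquaporins of ripening table grape berries are described here in transcript data from 3 Muscat cultivars. Members were the genes whose annotated description, the best match in the protein database as given in the study's annotation, names an aquaporin, a tonoplast intrinsic protein or a plasma membrane intrinsic protein. There were 24 such genes among the 27096 genes listed in at least 1 sample. Aquaporins are membrane channels that let water, and in some cases small uncharged solutes, move along their gradients. Plasma membrane intrinsic proteins (PIPs) sit mainly in the outer membrane of the cell and fall into the PIP1 and PIP2 subgroups, and many PIP1 proteins reach that membrane only together with a PIP2 partner. Tonoplast intrinsic proteins (TIPs) sit in the membrane of the vacuole, the compartment in which a ripening grape berry stores its sugar and most of its water. The NOD26-like (NIP) and small basic (SIP) intrinsic proteins are the other subfamilies reported here.

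The groups were Zaomeiguixiang, Italia and Xiangfei berries, each at EL35 (the berry starts to colour and soften), EL36 (veraison complete, sugar intermediate) and EL38 (ripe for harvest), which gives 9 groups of 3 replicates and 27 samples. All were untreated fruit of vines grown under a plastic cover in 1 vineyard, and each replicate was a pool of berries. The sources do not say whether replicates came from separate vines, so p-values measure the spread between these pools. The cultivars were matched by stage label and not by sugar content, so cultivar and ripeness within a stage cannot be told apart.

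Levels are given in FPKM, that is fragments relative to the length of the transcript and to the sample's assigned total, so that genes can be set beside each other. Changes are log2 fold changes from the estimated counts, fitted with edgeR's quasi-likelihood test over all 27 samples. A change is called where the Benjamini-Hochberg adjusted p, over the 21152 genes tested, was at most 0.05. A stricter rule, the study's own thresholds, asked for a log2 change of 1 or more in size together with an adjusted p no higher than 0.001. Standard errors (SE) were derived by dividing each change by the root of its F statistic, and are rough for scarce transcripts.

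Total counts ran from 16908559 to 27186952 per sample. Transcripts of a list of 35 genes for ripening berry proteins (thaumatin-like proteins, chitinases and GRIP22) summed to between 4489 and 36450 FPKM in every sample. Markers of the labelled tissue were thus present throughout. A list of 20 seed storage protein and oleosin genes summed to a median of 321 FPKM over the samples, with a lowest value of 199.5. It summed to more than 1000 FPKM in 3 libraries only, at 48208 in Italia EL35 replicate 3, 16525 in Zaomeiguixiang EL35 replicate 3 and 2013 in Xiangfei EL38 replicate 3. Member counts are given also without these 3 libraries, with the named members whose calls then changed. For counts with libraries left out, the share of all genes called in the same setting is not given. Such counts show how the calls depend on those libraries and are not a result about the members. In tissue RNA, fewer cells of a type and less RNA per cell cannot be told apart.

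By subfamily, 8 members were PIPs, 10 TIPs, 4 NIPs and 1 a SIP, and 1 member (LOC104878514) had a description that names none of these. A mean of at least 10 counts was reached by 20 members, and a mean of at least 10 FPKM by 14. The family made up 2.49% ± 1.01 of all FPKM at EL35, 1.25% ± 0.71 at EL36 and 1.13% ± 0.72 at EL38 (SD, n = 9 each). The highest share of any sample was 4.21%, in Xiangfei EL35, and the lowest 0.324%, in Italia EL38. PIPs accounted for 86.5% ± 4.54 of the family's FPKM and TIPs for 13.1% ± 4.53 (SD, n = 27), so the transcripts were mostly those of plasma membrane channels in every sample.

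**Figure D1:**
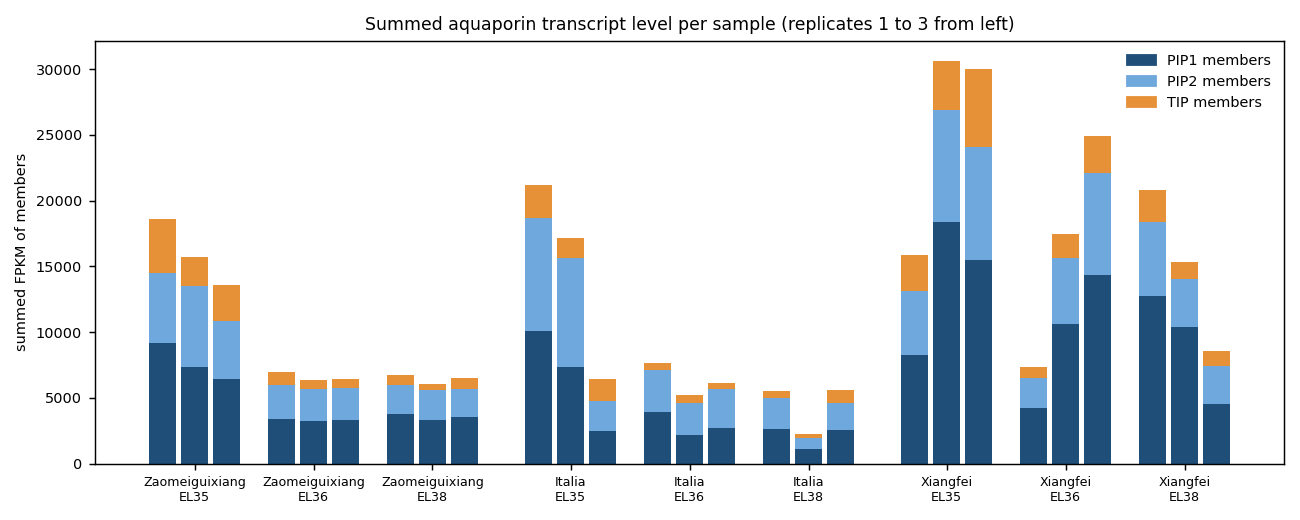
Summed FPKM of the PIP1, PIP2 and TIP members (vertical axis) in each of the 27 samples, as stacked bars grouped by cultivar and stage. The bars are tallest in Xiangfei EL35, where the whole family reached 30641 FPKM, and shortest in Italia EL38, where 1 sample had 2307 FPKM. Italia EL35 replicate 3, with 6476 FPKM for the family, stands below the other 2 replicates of its group.

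PIP1;3 was the leading member in all 27 samples. Its mean of 6102 FPKM placed it at rank 8 among all genes, and it supplied 47.0% ± 8.12 of the family's FPKM (SD, n = 27). In Zaomeiguixiang it had 8523, 6933 and 5716 FPKM at EL35, 3149, 3085 and 3052 at EL36, and 3575, 3163 and 3439 at EL38. In Italia the values were 8716, 6263 and 2010 at EL35, 3593, 1992 and 2414 at EL36, and 2169, 954.1 and 2304 at EL38. In Xiangfei they were 7813, 17932 and 14527 at EL35, 3002, 10152 and 13196 at EL36, and 12471, 10211 and 4399 at EL38. The lowest Xiangfei value of each stage came from the library with the highest TMM factor (edgeR's scaling for library composition) of its group. These factors were 1.29, 1.14 and 1.24, against 0.65 to 0.84 in the other Xiangfei libraries. The part of this in the values was not tested. In Zaomeiguixiang all EL38 replicates were below all EL35 replicates, whereas in Italia and Xiangfei these stages overlapped. The change over the cultivars, EL38 over EL35, was -1.14 (SE 0.42) with an edgeR adjusted p of 0.091, which did not pass the threshold.

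This leading gene was lower in Zaomeiguixiang and in Italia than in Xiangfei. Its mean over the stages was 4515 FPKM in Zaomeiguixiang, 3380 FPKM in Italia and 10411 FPKM in Xiangfei (SD 2040, 2502 and 4788, n = 9 each). The log2 fold change was -1.80 (SE 0.43) for Zaomeiguixiang over Xiangfei with an edgeR adjusted p of 0.0063, and -2.05 (SE 0.43) for Italia over Xiangfei with an edgeR adjusted p of 0.0021. Zaomeiguixiang and Italia differed by 0.25 (SE 0.42), which did not pass the test.

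The PIP2 subgroup, whose proteins are the more active water channels of the plasma membrane when expressed alone, held the next most abundant members. PIP2;1 averaged 1947 FPKM over the samples and fell with ripening. It had 822, 907 and 903 FPKM in Zaomeiguixiang at EL38, against 2924, 3459 and 2366 at EL35. In Italia it had 690, 175.5 and 442 FPKM at EL38, against 3600, 3340 and 875 at EL35. In Xiangfei it had 2281, 1243 and 1754 FPKM at EL38, against 3342, 4599 and 5301 at EL35. In each cultivar every EL38 replicate thus lay below every EL35 replicate. The log2 fold change for EL38 over EL35 was -1.95 (SE 0.37) as the mean of the cultivars, with an edgeR adjusted p of 0.0013. Part of it was already there at EL36, with -1.17 (SE 0.36) over EL35 and an edgeR adjusted p of 0.041, a call that was lost in 17 of the 27 fits that left out 1 library and had an edgeR adjusted p of 0.0085 without the 3 libraries rich in seed transcripts.

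PIP2;3 had a mean of 1550 FPKM, and its change for EL38 over EL35 was -1.27 (SE 0.43), with an edgeR adjusted p of 0.060. Without the 3 libraries rich in seed transcripts the change was -1.34 with an edgeR adjusted p of 0.034. Italia berries had 1185, 466 and 1208 FPKM at EL38, against 3934, 4177 and 1028 at EL35. The value of 1028 was that of replicate 3, and the other 2 EL35 replicates were above all EL38 values. Zaomeiguixiang berries had 651, 740 and 609 FPKM at EL38, against 1372, 1985 and 1408 at EL35, with no overlap. Xiangfei berries had 2301, 1411 and 642 FPKM at EL38, against 1057, 3167 and 2779 at EL35, with overlap, and a log2 fold change of -0.45 (SE 0.73, edgeR adjusted p of 0.81) with all libraries and -0.0039 (SE 0.68) without the 3.

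PIP2;2 averaged 549 FPKM and differed from these relatives in its stage values. Its log2 fold change for EL38 over EL35 was 0.01 (SE 0.42), with 0.08 (SE 0.73) in Zaomeiguixiang, -1.30 (SE 0.74) in Italia and 1.26 (SE 0.74) in Xiangfei, none of them called. Xiangfei berries had 1023, 1025 and 484 FPKM at EL38, against 356, 500 and 424 at EL35, and the stages overlapped. The test of a difference in stage effect between the cultivars gave an edgeR adjusted p of 0.59 for this gene, so a difference was not shown.

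PIP2 (gene 100233093), a member that carries the subgroup's name as its symbol, was the PIP with the lowest adjusted p for EL38 over EL35. Its fold change was -2.70 (SE 0.41) on the log2 scale over the cultivars, with an edgeR adjusted p of 0.00016. In Zaomeiguixiang it had 484, 154.5 and 303.9 FPKM at EL35, 42.2, 24.0 and 35.3 at EL36, and 67.9, 58.4 and 25.7 at EL38. The Italia replicates had 94.4, 76.5 and 30.3 FPKM at EL35, 35.7, 27.2 and 55.6 at EL36, and 63.3, 9.16 and 36.4 at EL38. The Xiangfei replicates had 132.5, 283 and 148.9 FPKM at EL35, 92.9, 280.6 and 342 at EL36, and 8.37, 7.64 and 10.5 at EL38. The Zaomeiguixiang values were thus low from EL36 on, whereas the Xiangfei values were low only at EL38 and overlapped between EL35 and EL36. The stage effect of this gene differed between the cultivars, with an edgeR adjusted p of 0.029 for the interaction of cultivar and stage. That call was lost with a replicate block and in 5 of the 27 fits without 1 library, namely those without Xiangfei EL36 replicate 3, Xiangfei EL38 replicate 2 or any of the 3 Zaomeiguixiang EL36 replicates.

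Among the other PIP1 members, PIP1;2 averaged 348 FPKM and was lower at EL38, with a log2 fold change of -1.87 (SE 0.35) for EL38 over EL35 and an edgeR adjusted p of 0.0011. In Zaomeiguixiang it had 128.5, 109.6 and 63.0 FPKM at EL38, against 448, 279 and 501 at EL35. In Italia the levels were 341, 98.7 and 190.6 FPKM at EL38, against 971, 805 and 312 at EL35. In Xiangfei the levels were 217, 128.9 and 104.3 FPKM at EL38, against 367, 347 and 821 at EL35. The stages did not overlap in Zaomeiguixiang and Xiangfei, and overlapped in Italia through replicate 3 of EL35. LOC100265390, described as PIP1-2 and its neighbour on chromosome 15 in the RefSeq gene table, averaged 119 FPKM and had a change of -1.16 (SE 0.37) with an edgeR adjusted p of 0.048. This call was lost in 19 of the 27 fits without 1 library. The sequences of these neighbours were not compared here, and whether the counting split shared reads between them was not tested, so their separate values are uncertain. PIP1;1, the scarcest PIP at 10.3 FPKM, changed by -3.27 (SE 0.78) with an edgeR adjusted p of 0.0082, and its replicates ran from 0 to 1.27 FPKM in Zaomeiguixiang, 0.20 to 13.0 in Italia and 0.73 to 3.64 in Xiangfei at EL38, against 0.61 to 23.7, 7.57 to 49.3 and 9.04 to 35.2 at EL35. Its change was -5.23 without Zaomeiguixiang EL38 replicate 2, -4.15 without Italia EL38 replicate 1 and -2.67 without the 3 libraries rich in seed transcripts, each still called.

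The summed PIP1 over PIP2 transcripts had a ratio of 1.53 ± 0.45 over all samples (SD, n = 27). The ratio ran from 1.19 to 1.71 in Zaomeiguixiang, from 0.89 to 1.36 in Italia and from 1.56 to 2.82 in Xiangfei. Every Italia sample was below every Xiangfei sample in this ratio, and the Zaomeiguixiang samples overlapped both.

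**Figure D2:**
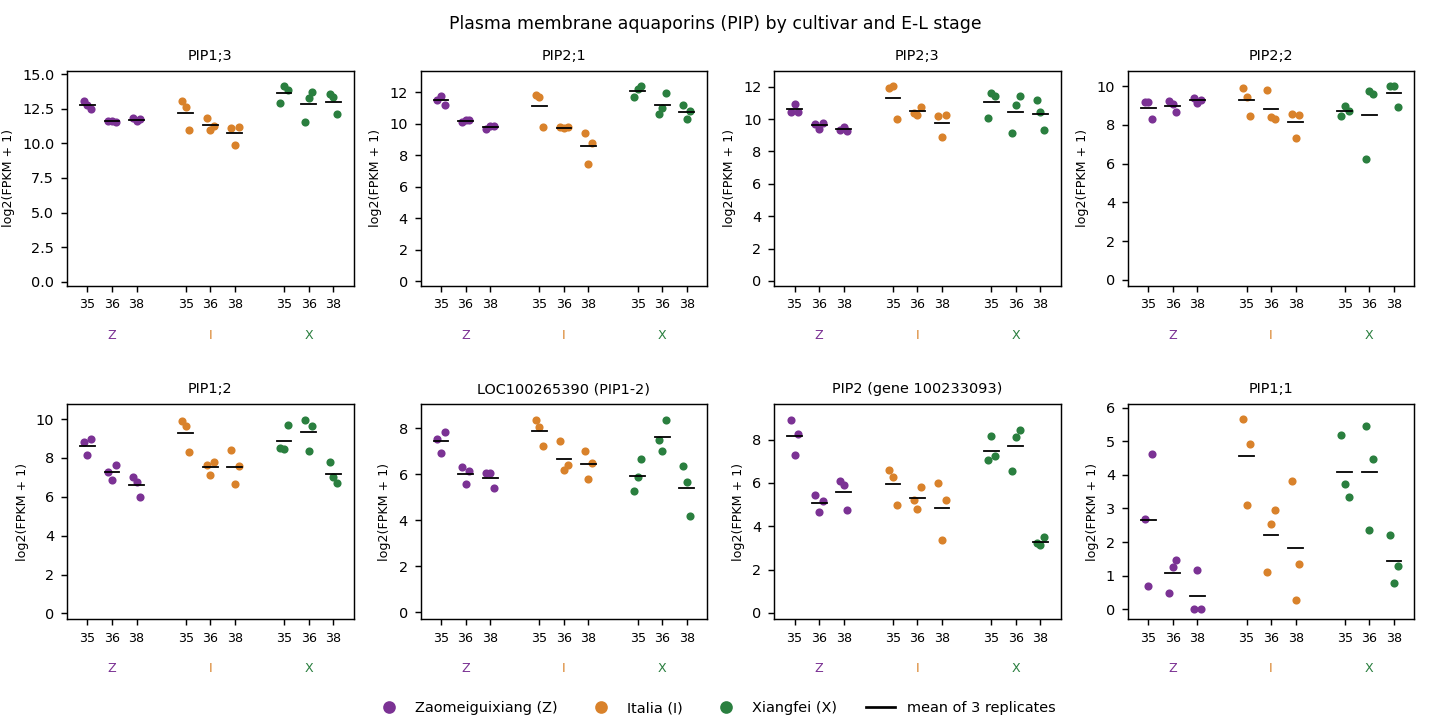
Levels of the 8 PIP members as log2(FPKM + 1) on the vertical axis, by cultivar and by E-L stage on the horizontal axis, with 1 point per sample and a line at the mean of the 3 replicates. PIP2;1 is lower at EL38 than at EL35 in all cultivars, PIP2;2 is not, and PIP2 (gene 100233093) drops at EL36 in Zaomeiguixiang and at EL38 in Xiangfei.

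The tonoplast channels were led by TIP1;2, at 979 FPKM on average. It had 569, 366 and 624 FPKM in Zaomeiguixiang at EL38, against 1432, 1422 and 1216 at EL35, with no overlap. In Italia it had 446, 339 and 918 FPKM at EL38, against 925, 769 and 566 at EL35, and in Xiangfei 1510, 875 and 533 at EL38, against 1304, 2076 and 2911 at EL35, both with overlap. Over the cultivars the change was -1.0 (SE 0.37), with an edgeR adjusted p of 0.091. This gene was lower in Zaomeiguixiang than in Xiangfei, by -1.42 (SE 0.37) with an edgeR adjusted p of 0.012, and lower in Italia than in Xiangfei, by -1.60 (SE 0.38) with an edgeR adjusted p of 0.0051.

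Other TIP members changed far more with stage. TIP2;1, of the delta type, which in Arabidopsis passes ammonia as well as water, had 126.9, 80.5 and 159.7 FPKM in Zaomeiguixiang at EL38, against 604, 308.0 and 344 at EL35. Italia berries had 50.9, 6.0 and 30.6 FPKM at EL38, against 881, 382 and 149.6 at EL35. In Xiangfei it had 868, 401 and 429.9 FPKM at EL38, against 1229, 1010 and 2215 at EL35. No replicate of EL38 reached the lowest EL35 value of its own cultivar. The log2 fold change over EL35 was -2.40 (SE 0.43) at EL36 and -2.40 (SE 0.43) at EL38, with edgeR adjusted p of 0.00091 and 0.00073. Against Xiangfei it was also lower, by -2.03 (SE 0.42) in Zaomeiguixiang and -2.98 (SE 0.44) in Italia, with edgeR adjusted p of 0.0023 and 4.8e-05.

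TIP1;1, a gamma-type channel of the large vacuole, had the widest swing among the TIPs with more than 100 FPKM. In Zaomeiguixiang it had 1557, 280.6 and 733 FPKM at EL35, 0.64, 3.27 and 29.8 at EL36, and 1.30, 14.8 and 1.5 at EL38. The Italia replicates had 117.3, 127.7 and 66.8 FPKM at EL35, 3.46, 14.2 and 11.5 at EL36, and 53.7, 6.79 and 17.5 at EL38. Xiangfei berries had 39.7, 560 and 532 FPKM at EL35, 211, 6.24 and 141.5 at EL36, and 3.07, 1.69 and 14.9 at EL38. The EL38 values lay below the EL35 values in every cultivar, while at EL36 only the Xiangfei values overlapped those of EL35. The log2 fold change was -3.79 (SE 0.77) for EL36 over EL35 and -5.17 (SE 0.82) for EL38 over EL35, with edgeR adjusted p of 0.0025 and 0.00023. They were -4.64 without Zaomeiguixiang EL36 replicate 3 and -5.84 without Zaomeiguixiang EL38 replicate 2, and both were still called.

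LOC100263698, described as TIP1-1, had changes of similar size, with -4.02 (SE 0.63) at EL36 and -4.74 (SE 0.65) at EL38 over EL35, and edgeR adjusted p of 0.00025 and 5.4e-05, the lowest of any member in each of these comparisons. It had 56.3, 11.1 and 4.13 FPKM in Zaomeiguixiang at EL38, against 456, 150.9 and 253 at EL35. In Italia the levels were 3.5, 0.89 and 11.3 FPKM at EL38, against 593, 245 and 101.0 at EL35. The Xiangfei replicates had 6.93, 4.42 and 5.59 FPKM at EL38, against 103.2, 68.2 and 224 at EL35. No EL36 or EL38 value of any cultivar reached the lowest EL35 value of the same cultivar. The change at EL36 was -4.61 without Xiangfei EL36 replicate 2. The TIPs as a group held 16.7% ± 5.43 of the family's FPKM at EL35, 10.8% ± 2.28 at EL36 and 11.9% ± 3.10 at EL38 (SD, n = 9 each). The highest EL35 share, 25.5%, was that of Italia EL35 replicate 3, a library rich in seed transcripts. There LOC100252897, described as TIP3-2, held 768 of the 1652 FPKM of the TIPs. The part of the seed-rich libraries in these means was not tested.

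LOC100250080, also described as TIP1-1, was scarce in most samples and was listed at 26.6, 0.73 and 76.9 FPKM in Xiangfei at EL36. All other samples had at most 3.13 FPKM, with 0 in all Zaomeiguixiang EL38 and all Italia EL36 replicates, so that no fold change is given. Its cultivar by stage interaction passed the test with an edgeR adjusted p of 0.031. That call was lost with a replicate block and in 8 of the 27 fits without 1 library, with adjusted p of up to 0.076. It was also called lower in Zaomeiguixiang and in Italia than in Xiangfei, with edgeR adjusted p of 0.005 and 0.0011. LOC100263698 has the same description and a transcript of similar length (1107 against 1108), and both genes lie on chromosome 6 in the RefSeq gene table. Their sequences were not compared here, and whether the counting split shared reads between them was not tested. The separate values and calls of LOC100250080 and LOC100263698 are therefore uncertain.

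The TIP3 (alpha) type is known from Arabidopsis as the aquaporin of seed protein storage vacuoles. LOC100252897, described as TIP3-2, was at 158.0 FPKM in Zaomeiguixiang EL35 replicate 3, 768 FPKM in Italia EL35 replicate 3 and 154.7 FPKM in Xiangfei EL38 replicate 3. These were the 3 libraries with more than 1000 FPKM of seed protein transcripts. The other 24 samples had at most 23.9 FPKM, in Xiangfei EL36 replicate 3, and its values there were mostly near 0. No comparison with all libraries called this gene, and its log2 fold change for EL38 over EL35 was -3.36 (SE 1.29) with all libraries and -1.72 without the 3 libraries, with edgeR adjusted p of 0.10 and 0.26.

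**Figure D3:**
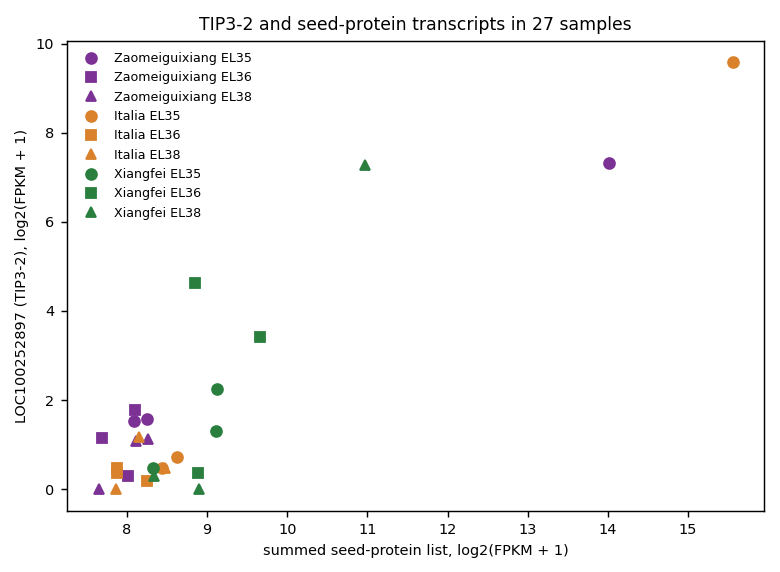
LOC100252897 (TIP3-2) against the summed seed protein list, both as log2(FPKM + 1), with 1 point per sample, the cultivar as colour and the stage as symbol. The 3 highest points are Italia EL35 replicate 3 (768 FPKM), Zaomeiguixiang EL35 replicate 3 (158.0 FPKM) and Xiangfei EL38 replicate 3 (154.7 FPKM), and all other points lie at or below 23.9 FPKM. On the seed list these had 48208, 16525 and 2013 FPKM, so the Xiangfei point lies well to the left of the other 2.

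The other gene described as TIP3-2, LOC100241797, did not share this pattern. It ran from 0 to 3.51 FPKM in Zaomeiguixiang, from 0 to 1.5 FPKM in Italia and from 2.41 to 11.5 FPKM in Xiangfei, and 5.81 FPKM was its value in Xiangfei EL35 replicate 3, a library without excess seed transcripts. It was lower in Zaomeiguixiang and in Italia than in Xiangfei, by -3.43 (SE 0.92) and -3.85 (SE 0.94), with edgeR adjusted p of 0.014 and 0.007. The first was -4.62 without Zaomeiguixiang EL36 replicate 1, and the second was -5.70 without Italia EL36 replicate 1 and -5.34 without Italia EL38 replicate 1. The study's pathway annotation places it with LOC104878514, its neighbour on chromosome 3 in the RefSeq gene table and at most 4.43 FPKM here, under an animal aquaporin and not under TIP, so its subfamily rests on the description alone. TIP4-1 (LOC100252631) was at 17.9 FPKM in Xiangfei EL35 replicate 1, at most 1.33 FPKM elsewhere and at 0 in all Italia samples.

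Among the NIPs, LOC100265051, described as NIP5-1, was the only one with a mean over 10 FPKM. Its counterpart in Arabidopsis is a channel for boric acid. In Zaomeiguixiang it had 7.26, 4.47 and 8.53 FPKM at EL35, 3.18, 4.51 and 6.97 at EL36, and 1.91, 0.96 and 0.72 at EL38. In Italia it had 19.4, 26.8 and 16.6 FPKM at EL35, 53.2, 27.4 and 24.6 at EL36, and 41.4, 19.9 and 27.3 at EL38. In Xiangfei the levels were 3.73, 9.95 and 11.3 FPKM at EL35, 11.7, 3.45 and 6.74 at EL36, and 2.60, 0.97 and 2.32 at EL38. All 9 Italia samples, with a lowest value of 16.6 FPKM, were above all 18 samples of the other cultivars, with a highest value of 11.7 FPKM. Among the 18494 genes that averaged 10 or more counts, 40 (0.216%) had such a separation of Italia upward. The log2 fold change was -3.29 (SE 0.34) for Zaomeiguixiang over Italia, with an edgeR adjusted p of 5.1e-07, and 2.33 (SE 0.33) for Italia over Xiangfei, with an edgeR adjusted p of 3e-05.

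NIP5-1 was lower at EL38 over the cultivars, by -1.43 (SE 0.32) over EL35 with an edgeR adjusted p of 0.0054. That call was kept in each fit that left out 1 library. In Zaomeiguixiang and in Xiangfei every EL38 replicate lay below every EL35 replicate, while in Italia the stages overlapped. EL38 over EL35 was -2.66 (SE 0.59) in Zaomeiguixiang with an edgeR adjusted p of 0.022, -2.03 (SE 0.57) in Xiangfei with an edgeR adjusted p of 0.082, and 0.39 (SE 0.54) in Italia with an edgeR adjusted p of 0.79. The call in Zaomeiguixiang was lost in 4 of the 27 fits without 1 library. The interaction had an edgeR adjusted p of 0.19, so a difference between the cultivars in stage effect was not shown. LOC100263543, described as NIP1-1, averaged 4.24 FPKM. It was lower in Italia than in Xiangfei by -2.08 (SE 0.44), with an edgeR adjusted p of 0.0019 and ranges of 0.32 to 11.0 FPKM and 2.87 to 10.7 FPKM, which overlap.

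The 1 SIP member, LOC100246584 (SIP2-1, a type found in the endoplasmic reticulum in Arabidopsis), was the only member called higher at EL38. It averaged 8.57 FPKM and changed by 0.77 (SE 0.24), with an edgeR adjusted p of 0.045 that was lost in 21 of the 27 fits without 1 library. Without the 3 libraries rich in seed transcripts the change was 1.07 (SE 0.23) with an edgeR adjusted p of 0.0047. In Xiangfei it had 12.0, 12.8 and 13.0 FPKM at EL38, against 7.74, 6.27 and 6.98 at EL35, with no overlap, and in Zaomeiguixiang the stages overlapped. In Italia it had 10.9, 11.6 and 6.92 FPKM at EL38, against 2.1, 2.34 and 10.3 at EL35, and the overlap came through EL35 replicate 3, a library rich in seed transcripts. Its change in Italia was 1.86 (SE 0.43) with an edgeR adjusted p of 0.014, without the 3 libraries, against 1.09 (SE 0.42) with all libraries, which did not pass the test. The SIP-like genes LOC100232979 and LOC100250331, both described as small basic intrinsic protein 1, are outside the rule by their description. They averaged 166.0 and 26.0 FPKM, so the level of the 1 SIP member does not stand for all SIP-like genes.

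**Figure D4:**
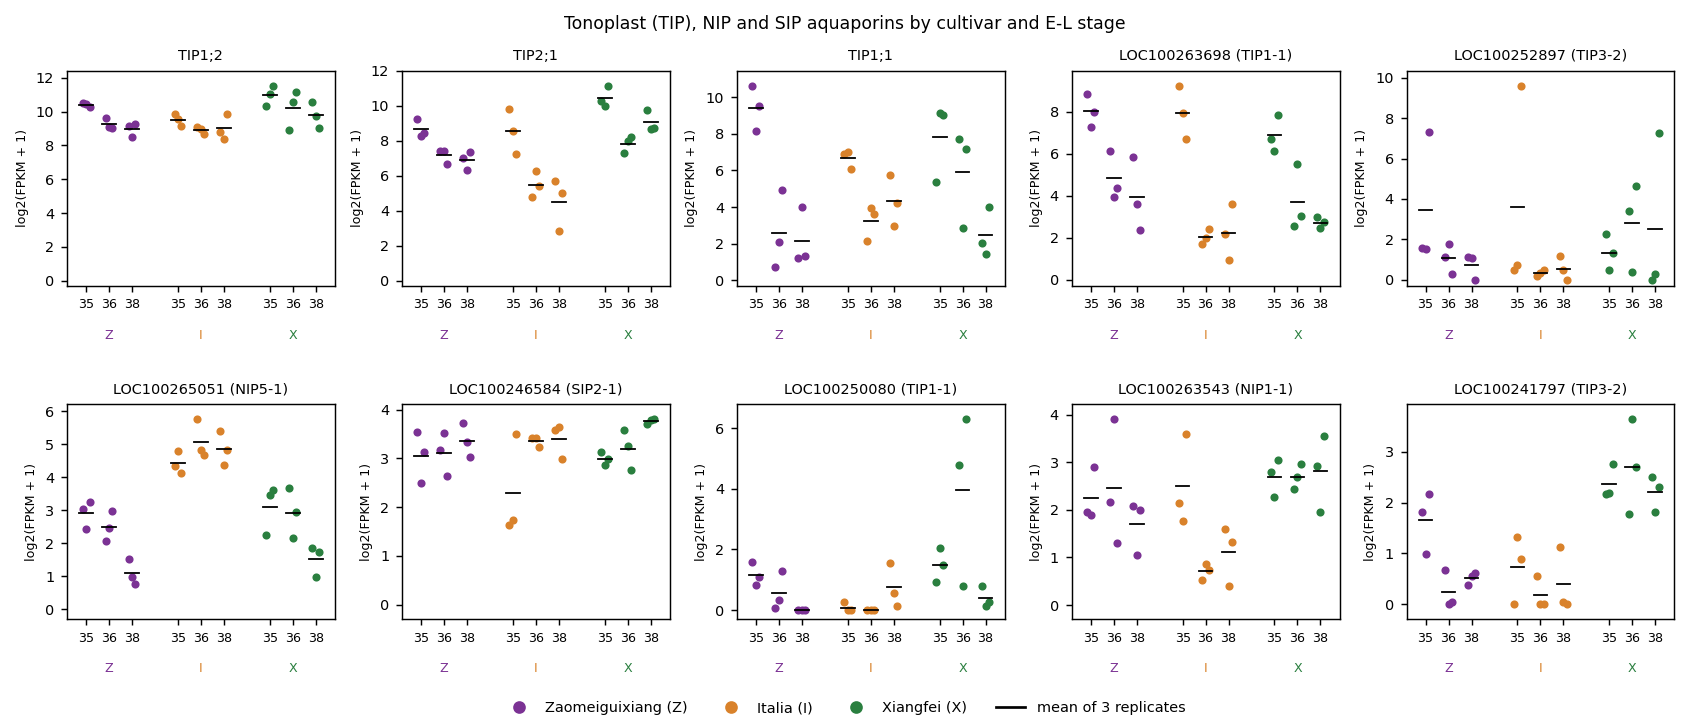
Levels of the 10 TIP, NIP and SIP members with a mean of at least 1 FPKM, as log2(FPKM + 1) on the vertical axis, by cultivar and E-L stage, with 1 point per sample and a line at the mean of 3 replicates. TIP2;1, TIP1;1 and LOC100263698 are highest at EL35 in all cultivars, and LOC100265051 (NIP5-1) is highest in Italia at every stage.

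Another 4 members were scarcer still, with a mean under 10 counts. They were LOC100258460 (described as NIP6-1), LOC100256997, LOC100247890 and LOC100258739. LOC100258460 had at most 0.93 FPKM, and the other 3 were each listed in 1 sample only.

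Over the family, of the 21 members tested for EL38 over EL35, 10 were called, 9 lower and 1 higher, beside 10.1% of all genes tested (6.28% lower and 3.77% higher). By subfamily, 5 of 8 PIPs, 3 of 8 TIPs and 1 of 3 NIPs were lower, and the SIP was higher. The stricter rule kept 4 members, 3 TIPs and PIP2 (gene 100233093), beside 1.5% of all genes. The median log2 fold change was -1.87 over the 21 members, -1.35 over the 18 with no group of samples at 0, and 0.00 over all genes. Without the 3 libraries rich in seed transcripts 11 members were called, the same 10 and PIP2;3. The share of all genes called in that setting is not given here.

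For EL36 over EL35, 4 members were called and all were lower, namely the leading PIP2 gene, the delta-type TIP2;1, TIP1;1 and LOC100263698, beside 10.8% of all genes (6.24% lower). By the stricter rule 2 of these TIPs were called, beside 1.14% of all genes. Without the 3 libraries 7 members were called, these 4 and 3 more. The added ones were PIP1;2 at -0.99 and PIP2 (gene 100233093) at -1.23, both lower, and the SIP at 0.84, higher, with edgeR adjusted p of 0.041, 0.046 and 0.020. Without Italia EL35 replicate 3 alone 7 were called as well. The shares of all genes called with these libraries left out are not given here. For EL38 over EL36 no member was called by edgeR, beside 0.00473% of all genes. An unadjusted edgeR p under 0.05 was seen for 6 members, and DESeq2 called 2, PIP2 (gene 100233093) and NIP5-1. That share of all genes holds for the adjusted edgeR calls only. The matching shares for the 6 and the 2 are not given here, so no excess of members is shown. These 3 comparisons share samples and are not independent of each other.

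Within cultivars 2 to 3 members were called for EL38 over EL35. In Zaomeiguixiang these were TIP1;1, PIP2 (gene 100233093) and NIP5-1, beside 1.53% of all genes (0.931% lower), with changes of -7.30 (SE 1.56), -2.78 (SE 0.71) and -2.66 (SE 0.59). None was called without EL35 replicate 1 or without EL38 replicate 3, and 1 was called without EL35 replicate 3, EL38 replicate 1 or EL38 replicate 2. The call of PIP2 (gene 100233093) there, at an edgeR adjusted p of 0.047, was lost in 19 of the 27 fits without 1 library, with DESeq2 size factors and with a replicate block. The TIP changed by -9.32 without EL38 replicate 2 and by -6.62, no longer called, without EL35 replicate 1. In Italia the leading PIP2 gene, TIP2;1 and LOC100263698 were called, beside 2.95% of all genes (1.91% lower), with changes of -2.74 (SE 0.66), -4.15 (SE 0.80) and -6.09 (SE 1.2). Without EL35 replicate 3 there were 5 calls in Italia, and without all 3 libraries rich in seed transcripts 6, the 3 above with PIP2;3 (-2.33) and PIP1;2 (-2.29) lower and the SIP (1.86) higher, and edgeR adjusted p of 0.048, 0.019 and 0.014. The share of 2.95% is that with all libraries, and those for these settings are not given here. Of the Italia changes, that of the PIP was -3.35 without EL38 replicate 1, that of the delta-type TIP was -3.24 without EL35 replicate 1 and -4.93 without EL38 replicate 1, and that of LOC100263698 was -5.15 without EL35 replicate 1 and -7.30 without EL38 replicate 3. In Xiangfei TIP1;1 and PIP2 (gene 100233093) were called, beside 1.17% of all genes (0.742% lower), with changes of -6.13 (SE 1.48) and -4.31 (SE 0.76), and the first of these calls was lost in 9 of the 27 fits without 1 library, among them that without Xiangfei EL38 replicate 3, at -7.04. It was also lost without the 3 libraries rich in seed transcripts, with an edgeR adjusted p of 0.051.

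Replicate by replicate, 14 of the 20 members that averaged 10 or more counts had every EL38 sample below every EL35 sample in Zaomeiguixiang, beside 9.92% of all such genes. The counts were 6 in Italia, beside 11.0% of genes, and 9 in Xiangfei, beside 9.20% of genes. The opposite order, EL38 above EL35, was seen for 0 members in Zaomeiguixiang, 0 in Italia and 1 in Xiangfei, the SIP, beside 14.3% of genes in Zaomeiguixiang, 11.6% in Italia and 6.06% in Xiangfei.

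**Figure D5:**
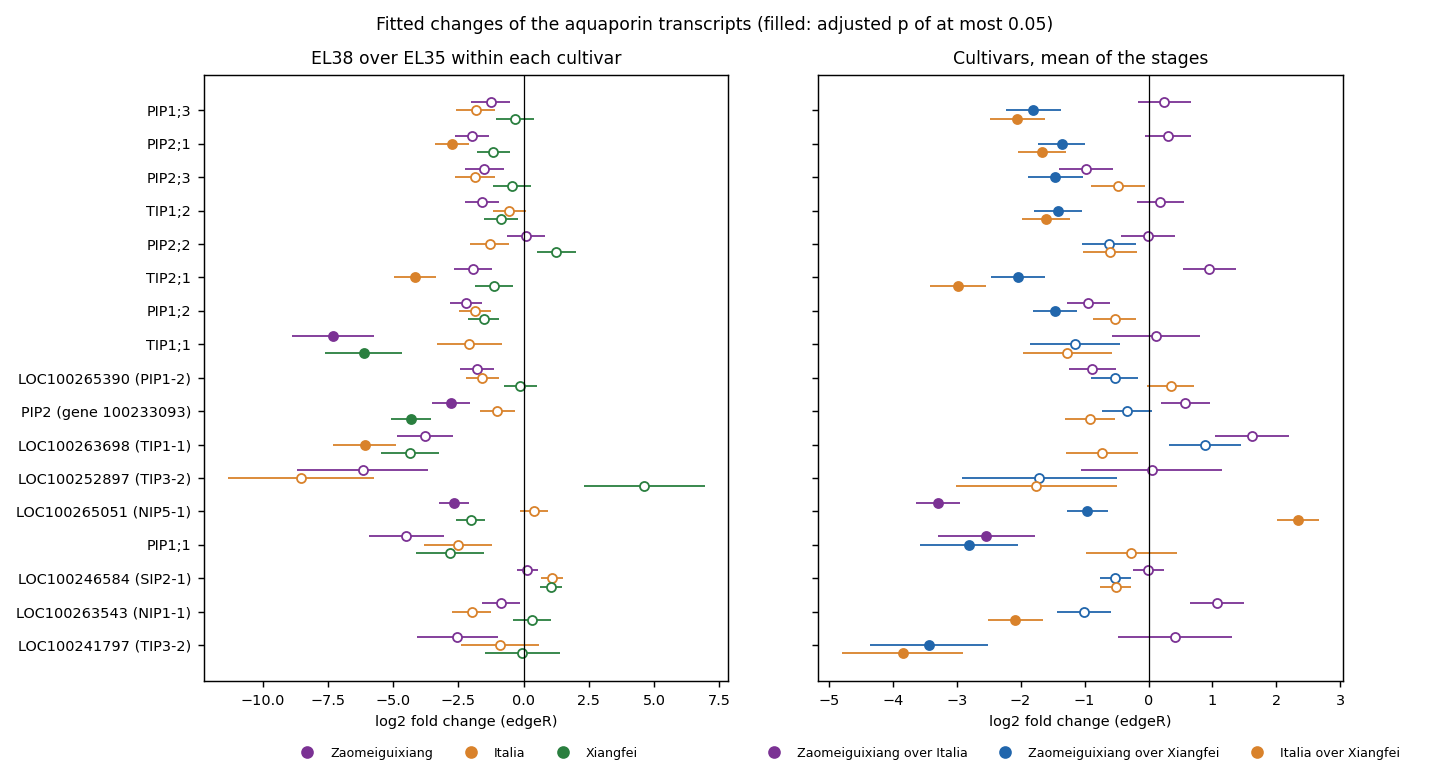
Log2 fold changes (horizontal axes) of 17 members with a mean of at least 1 FPKM and no group at 0, EL38 over EL35 within each cultivar on the left and between cultivars over the stages on the right. Bars are ± 1 SE and filled points have an adjusted p of at most 0.05. On the left most points lie below 0, and on the right most points over Xiangfei lie below 0, while NIP5-1 in Italia is called above it, at 2.33.

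Between cultivars, for Zaomeiguixiang over Xiangfei 11 of 21 members were called, all lower, beside 16.0% of all genes (10.1% lower). They were 5 of the 8 PIPs, among them the leading 3 (with -1.36 for PIP2;1 and -1.46 for PIP2;3, and edgeR adjusted p of 0.014 and 0.023), 4 TIPs and 2 NIPs (NIP5-1, whose call was lost in 14 of the 27 fits without 1 library, and the scarce NIP6-1). For Italia over Xiangfei 8 were called, beside 16.1% of all genes, of which the 2 leading PIPs, 4 TIPs and NIP1-1 were lower and NIP5-1 was higher (10.0% of all genes were lower and 6.15% higher). Without the 3 libraries rich in seed transcripts 11 were called in the first comparison and 9 in the second, where the SIP was added at -0.84 with an edgeR adjusted p of 0.013. The shares of all genes called without these libraries are not given here. For Italia over Xiangfei the stricter rule kept the delta-type TIP and NIP5-1, beside 3.18% of all genes. For Zaomeiguixiang over Xiangfei it kept no member, as the lowest edgeR adjusted p of a member was 0.0023, for the delta-type TIP. The median log2 fold change over the members was -1.42 for Zaomeiguixiang over Xiangfei and -1.27 for Italia over Xiangfei, against 0.06 and -0.01 over all genes. Over the 18 members with no group of samples at 0 the medians were -1.25 and -0.99. Both comparisons use the same Xiangfei samples.

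The count for Zaomeiguixiang over Xiangfei depended on the scaling. With library size alone in place of TMM factors, the median of all genes for Zaomeiguixiang over Xiangfei moved by 0.32 and the share of calls that were higher became 63.2%, against 37.0%, while 7 members were called and the members' median was -0.90. The calls over all genes changed as well, with 1488 higher and 867 lower, against 1254 and 2139 with TMM factors. For Italia over Xiangfei the share of higher calls became 49.6%, against 38.1%, and 8 members were called under both scalings. There 1467 of all genes were called higher and 1493 lower, against 1300 and 2115 with TMM factors. For Zaomeiguixiang over Italia only NIP5-1 and the scarcest PIP, PIP1;1, were called, both lower, beside 15.5% of all genes (6.97% lower), or NIP5-1 alone by the stricter rule, beside 2.56%. The share of higher calls was 67.4% with library size alone, against 55.1%. The PIP changed by -2.53 (SE 0.76) there, with an edgeR adjusted p of 0.026, and lost its call in 6 fits without 1 library, with -1.66 without Italia EL38 replicate 1 and -4.49 without Zaomeiguixiang EL38 replicate 2. Without the 3 libraries rich in seed transcripts it was -3.12, and 4 members were called, with PIP1;2 (-1.11) and LOC100265390 (-1.04) added at edgeR adjusted p of 0.019 and 0.034. Without Italia EL35 replicate 3 there were 4 calls, and there was 1 call without Italia EL36 replicate 3, Italia EL38 replicate 1, or replicate 1 of any Zaomeiguixiang stage. The shares of all genes called with these libraries left out are not given here.

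The interaction of cultivar and stage called 2 members, PIP2 (gene 100233093) and LOC100250080, beside 0.662% of all genes. The same 2 were called without the 3 libraries rich in seed transcripts. No member was called without Xiangfei EL36 replicate 3 or without Zaomeiguixiang EL36 replicate 2, and 1 was called without some others.

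Other genes of solute and water movement were set beside the aquaporins by their descriptions. Of 28 tonoplast proton pump genes tested, whose proteins energise the vacuole, 1 was called for EL38 over EL35, lower, and their median log2 fold change was 0.23. Of 9 plasma membrane proton pump genes 1 was higher and 1 lower, with a median of 0.20. Of 28 potassium channel and transporter genes 3 were higher and 5 lower, with a median of -0.24. The seed list had 10 of 19 genes lower and 1 higher, and the ripening berry list 8 of 31 higher and 2 lower, and the part of these in the aquaporin values was not tested.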

How the data were processed

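Berry RNA of 27 samples was sequenced, 3 for each of 9 groups set by the cultivar and stage labels. The authors mapped reads to grape genome V2 with HISAT, added transcripts found there to the reference transcripts, aligned to this set with Bowtie2 and estimated levels with RSEM. The authors deposited, per sample and gene, the expected counts (estimated, not normalized), the FPKM (scaled to length and to assigned fragments) and the transcript length. Genes at 0 are left out of the files and were taken as 0, which allows up to 3 counts, between 1.1e-05% and 1.77e-05% of a sample's counts (counting error only).

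Expected counts were rounded and tested with edgeR 4.0.16 in R 4.3.3 (quasi-likelihood, TMM, default filter on low counts, 1 fit of 9 groups). The fit gave a common dispersion of 0.526. The script was tested on simulated data, with 100 genes changed by 2 and 100 by 1 on the log2 scale for EL38 over EL35. At a dispersion of 0.02 it called 100 and 100 of these. At the dispersion of each gene in the real samples it called 85 and 15, with 6 unchanged genes called. A change near 1 that was not called is thus not shown to be absent. FPKM values were used for levels, with a pseudocount of 1 in the plots. Alternatives were DESeq2 1.42.0, its size factors, library size alone, no filter, a replicate block, only the groups compared, each library left out, and libraries with seed transcripts left out, of which the set of 3 was chosen after seeing the data. Tables and plots were made in Python 3.11.15 with scipy 1.17.1, numpy 2.4.6, pandas 2.3.3 and matplotlib 3.10.9.

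Members and lists were chosen with earlier results of these data known. Named with values were members with a mean of at least 10 FPKM, those called in a comparison over cultivars or stages or in the interaction, the leading member of each subfamily and any TIP3. Those with a mean under 10 counts got no fold change. The other genes named (the last 4 members, LOC100232979 and LOC100250331) were added after their values were seen. Subfamily came from the description for 18 members and, against the plan, from the deposited symbol for 5 described only as aquaporin-like. All 24 members were found in the RefSeq gene table of assembly ASM3070453v1, used for chromosomes and neighbours only since its build differs. Protein and promoter sequences were not used here.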

Additional observations from a re-analysis of the deposited data

Results flagged for a closer look

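The stage effect differed between cultivars for 2 members by the edgeR test of cultivar by stage. PIP2 (gene 100233093) had an adjusted p of 0.0293. Its values were low from EL36 on in Zaomeiguixiang and at EL38 only in Xiangfei, and which stages and cultivars made the difference was not tested. LOC100250080 (described as TIP1-1) had an adjusted p of 0.0313, and its highest values, 76.9 and 26.6 FPKM, were in Xiangfei at EL36. Both calls were lost with a replicate block. That of PIP2 (gene 100233093) was lost in 5 of the 27 fits without 1 library, and that of LOC100250080 in 8.

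For 3 members all replicates of a stage lay above all those of an earlier stage in 1 cultivar and below them in another. This was so beside 6.67% of all genes that averaged 10 or more counts, and these differences were not tested pair by pair. They were 3 of the 20 such members. LOC100265390 (described as PIP1-2) was lower at EL36 than at EL35 in Zaomeiguixiang, by -113.5 FPKM on average, and higher in Xiangfei, by 144.9 FPKM. LOC100250080 was lower at EL38 than at EL36 in Zaomeiguixiang, by -0.57 FPKM, and higher in Italia, by 0.85 FPKM. LOC104878514 was higher at EL38 than at EL36 in Italia, by 0.17 FPKM, and lower in Xiangfei, by -1.56 FPKM. The last 2 rest on values near 0 in most samples, and the edgeR adjusted p of the interaction was 0.21 for LOC100265390 and 0.27 for LOC104878514.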

How the results depend on the processing

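Of 45 called changes of members, 44 were followed through the alternatives, without that of NIP6-1, whose mean was under 10 counts. Of these 44, none reversed under any alternative, and 31 kept their call in each fit that left out 1 library. Calls were lost for 0 with DESeq2, 2 with DESeq2 size factors, 6 with library size alone, 1 without the filter, 7 with only the groups compared, 0 without the 2 libraries known to hold seed transcripts (Italia EL35 replicate 3 and Xiangfei EL38 replicate 3) and 1 without the 3 such libraries. The interaction was not fitted with only the groups compared, so its calls among the 44 were not followed in that setting. Of 138 changes not called, 36 changed sign in some setting, and their direction is not a result. Members called for EL36 over EL35 numbered 7 with library size alone, 7 without the 2 libraries and 7 without the 3, against 4. With DESeq2 the counts were 2 for EL38 over EL36 against 0, 5 for Zaomeiguixiang over Italia against 2, 8 in Zaomeiguixiang against 3, 5 in Italia against 3, 4 in Xiangfei against 2 and 6 for the interaction against 2. With library size alone 7 were called for Zaomeiguixiang over Xiangfei, against 11. With only the groups compared the counts were 6 for Zaomeiguixiang over Italia, 7 in Zaomeiguixiang and 0 in Italia. Without the 2 libraries they were 7 for Zaomeiguixiang over Italia and 8 in Italia, and without the 3 libraries 4 for Zaomeiguixiang over Italia, 6 in Italia and 1 in Xiangfei. These member counts are given without the share of all genes called in the same setting. They show how the counts depend on the processing and are not a result about the members. The cause of these shifts was not tested.

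With 1 library left out, the members called ran from 3 to 7 for EL36 over EL35, 8 to 12 for EL38 over EL35, 0 to 0 for EL38 over EL36, 8 to 10 for Italia over Xiangfei, 8 to 11 for Zaomeiguixiang over Xiangfei, 1 to 4 for Zaomeiguixiang over Italia, 0 to 4 in Zaomeiguixiang, 2 to 5 in Italia, 1 to 3 in Xiangfei and 0 to 2 for the interaction. Equal replicate numbers did not pair the samples: deviations from the group means had a mean r of -0.0028 over 108 pairs with the same number and 0.0032 over 216 pairs with different numbers. With the replicate block 7 of the 44 calls were lost, and the members called were 1 for Zaomeiguixiang over Italia, 1 in Xiangfei and 0 for the interaction. A pseudocount of 0.1 in place of 1 turned the sign of EL38 minus EL35 for 0 of the 20 members that averaged 10 or more counts. For members with a mean under 10 counts, depth limits what can be shown.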
